A study of Arabidopsis thaliana with 3 samples.

Results

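The nuclear genes of the 2 photosystems and their light-harvesting antennae were examined for binding of SPL10, an SBP-domain transcription factor of Arabidopsis thaliana. Members were all genes on the 5 nuclear chromosomes with a symbol or synonym starting with LHCA, LHCB, PSA or PSB in any letter case. This gave 63 protein-coding genes out of 27444 protein-coding and 37899 nuclear genes in all: 6 LHCA, 15 LHCB, 17 PSA and 25 PSB genes. Of these, 43 matched by their first symbol and 20 by a synonym only. The plastid genome carries a further 20 genes with such names, which were outside the rule, and no plastid peak was listed in either replicate. The names hold for most but not all members. The PSA prefix also took in PSAT1 (AT1G04010), a phospholipid sterol acyltransferase, and PSAT (AT4G35630) and PSAT2 (AT2G17630), which are phosphoserine aminotransferases, and the PSB prefix took in PnsL1, PnsL2 and PnsL3, subunits of the chloroplast NDH complex. The other 57 encode photosystem, antenna, assembly or PsbP- and PsbQ-like proteins.

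The samples were 2 SPL10 precipitations (replicates 1 and 2) and 1 input, all from leaves of the Col-0 ecotype, with fixation in 1% formaldehyde for 10 minutes. No other genotype, treatment or age is named in the labels, and the sources used here do not say how the SPL10 protein was made. DNA affinity purification sequencing (DAP-seq) recovers genomic DNA retained by a transcription factor, so it measures binding and not transcription. The sample titles read IP and input, and fixation is a step of immunoprecipitation from chromatin. Whether SPL10 bound purified DNA or leaf chromatin was therefore not settled here. The input had an alignment log without peaks, so binding is described for the SPL10 precipitations alone. The lists held 21574 and 21439 peaks, and the median summit, the highest point of a peak, carried 47 and 45 recovered sequence tags. Of the nuclear peaks, 16697 overlapped reciprocally by at least 50% and are called shared. At shared peaks the split of tags between replicates varied 0.649 times as much as binomial sampling gives. The replicates were therefore counted as 1 sample, with both values given and no standard deviation. No label ties them to separate plants.

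Photosystem II splits water and photosystem I reduces ferredoxin, and both are fed by chlorophyll-binding antenna proteins, the LHCB proteins mainly at photosystem II and the LHCA proteins at photosystem I. The reaction-centre cores are largely encoded in the plastid, whereas the antennae, the oxygen-evolving complex and many peripheral subunits are encoded in the nucleus. These nuclear genes are known for strong expression in green leaves and for control by light and by the GLK factors.

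A gene was called bound when the summit of a shared peak, taken as the mean of both replicates' summits, lay in the gene or within 2000 bp of either end. By this measure 39 of the 63 members were bound, or 61.9% (exact binomial interval 48.8% to 73.9%, counting error only), against 59.9% of all nuclear protein-coding genes. The share of members bound was therefore near the background. The members were also shorter, with a median length of 1466 bp against 2078 bp for coding genes, and 56.2% of coding genes of 1000 to 2000 bp were bound. By prefix, 3 of 6 LHCA genes (50%), 11 of 15 LHCB genes (73.3%, interval 44.9% to 92.2%), 9 of 17 PSA genes (52.9%) and 16 of 25 PSB genes (64%) were bound. Each of the 4 intervals contained the background value. Over photosystem products only, 6 of 14 PSA genes (42.9%) and 15 of 22 PSB genes (68.2%) were bound.

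**Figure D1:**
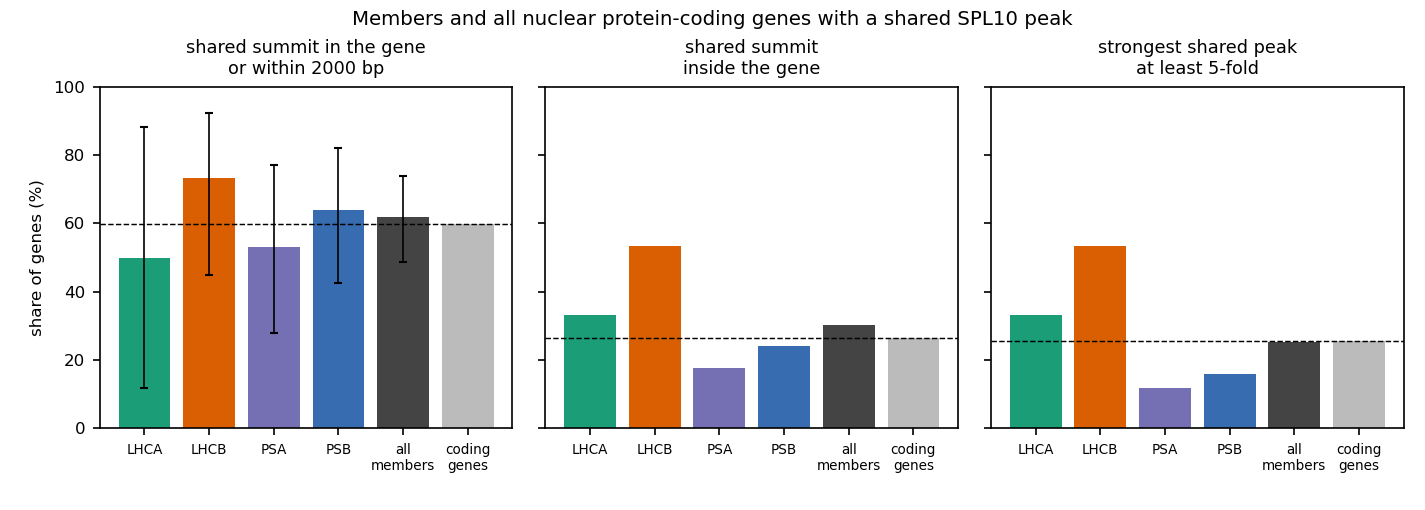
Share of genes (%) in each prefix group, in all members and in all nuclear protein-coding genes (grey), for 3 ways of calling a gene. Error bars, drawn in the left panel only, are exact 95% binomial intervals, and the dashed line is the background. All members lie near the line in each panel, and the LHCB bar stands at 53.3% in the middle and right panels, where coding genes stand at 26.6% and 25.6%. In both panels 5 of those 8 LHCB genes are LHCB1 copies, and the other LHCB genes stand at 30%.

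The groups also spread in the strength and place of their peaks. Strength is the authors' fold enrichment over local background at the summit. For a gene it is taken at its strongest shared peak, as the geometric mean of both replicates. The median over bound members was 4.10-fold, against 4.39-fold over all bound coding genes. Over bound LHCB genes it was 7.47-fold and over bound LHCA genes 7.24-fold, whereas bound PSA genes had a median of 2.83-fold and bound PSB genes one of 3.79-fold. At least 5-fold was reached by 16 of 63 members (25.4%), against 25.6% of coding genes. Those 16 comprised 8 of 15 LHCB, 2 of 6 LHCA, 2 of 17 PSA and 4 of 25 PSB genes. All 5 LHCB1 genes, which are close copies in 2 clusters, were among the 8, and LHCB1.1 and LHCB1.5 took their strongest peak from a neighbouring copy. Of the other LHCB genes 3 of 10 (30%) reached 5-fold, near the background, and their bound members had a median of 5.03-fold. A shared summit lay inside the gene itself in 19 members (30.2%), against 26.6% of coding genes, in 8 of the 15 LHCB genes (53.3%) and in 3 of 10 LHCB genes (30%) other than LHCB1. Among the 5000 strongest shared peaks 15 members (23.8%) had one, against 22.6% of coding genes, and 23 members (36.5%) had one with −log10 q of at least 10, against 36% of coding genes. These groups are small, and the differences between them were not tested.

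**Figure D2:**
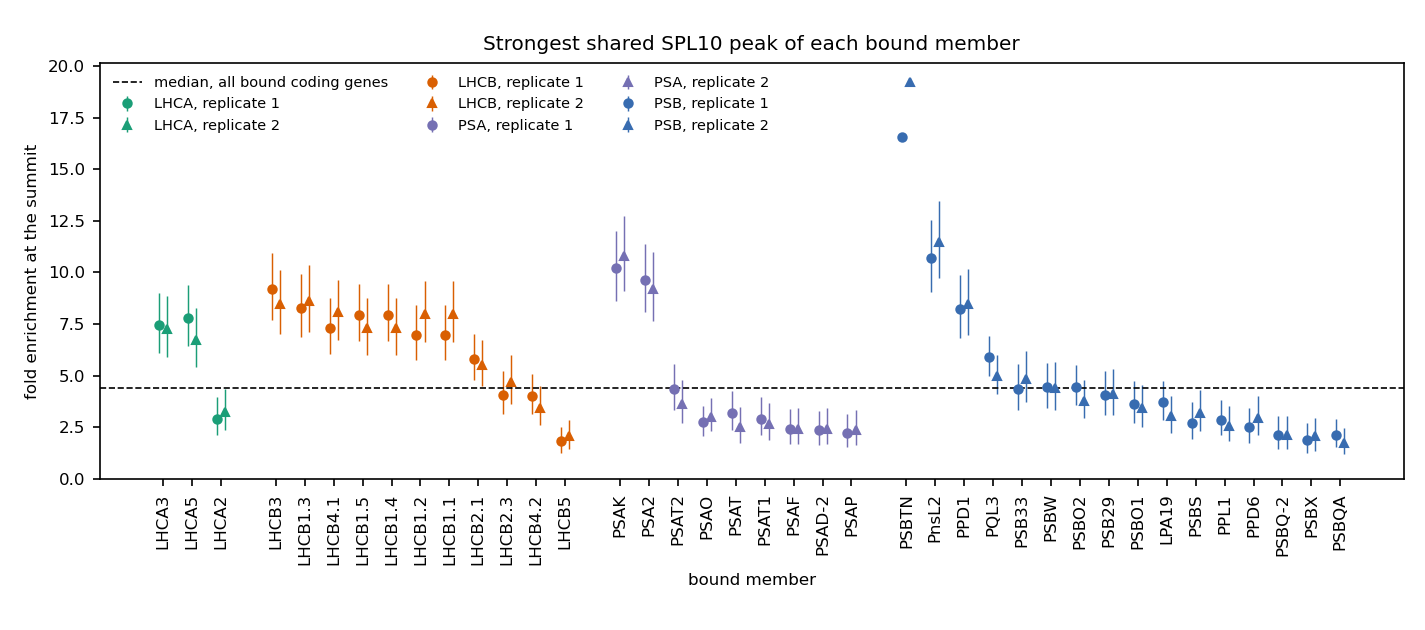
Fold enrichment at the strongest shared peak of each bound member, in replicate 1 (circles) and replicate 2 (triangles), with exact 95% Poisson intervals on the recovered tags. The dashed line is the median of all bound coding genes, 4.39-fold, and PSBTN has no interval because its summits held over 198 tags. In LHCB 8 of the 11 bound genes have a mean of at least 5-fold, whereas in PSA all but PSAK and PSA2 lie under the line.

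The LHCB1 genes encode the most abundant protein of the trimeric antenna of photosystem II, and all 5 had a shared summit inside the gene. They lie in a run of 3 on chromosome 1 and a pair on chromosome 2. In LHCB1.2 (CAB3, AT1G29910) the peak at 10472926 to 10473363 on chromosome 1 (replicate 1, TAIR10) had 6.98-fold (counting interval 5.73 to 8.42, 107 tags) in replicate 1 and 7.99-fold (6.62 to 9.56, 117 tags) in replicate 2. In LHCB1.1 (CAB2, AT1G29920) the peak at 10475557 to 10476013 had 6.10-fold (5.08 to 7.27) and 5.52-fold (4.55 to 6.64). In LHCB1.3 (CAB1, AT1G29930) the inner peak, at 10478051 to 10478402, had 6.70-fold (5.68 to 7.85) and 6.71-fold (5.63 to 7.94). A shared peak was thus listed inside each gene of the run, at similar folds.

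LHCB1.3 had a further, stronger peak just outside it, 42 bp past its higher-coordinate end and inside the neighbouring gene NRPA2, at 8.30-fold and 8.61-fold. On chromosome 2, LHCB1.5 (LHB1B2, AT2G34420) held a peak at 14523186 to 14523635 with 6.21-fold (5.24 to 7.32) and 7.33-fold (6.13 to 8.69). Its neighbour LHCB1.4 (LHB1B1, AT2G34430) held one at 14524809 to 14525141 with 7.95-fold (6.65 to 9.42) and 7.29-fold (6.01 to 8.76). In the pair, too, 1 inner peak was listed per gene. Because the genes lie close together, the LHCB1.2 summit also counted for LHCB1.1, 1577 bp away, as its strongest, and the summits of the pair counted for both genes. These 3 peaks were the only ones of the 52 distinct member peaks that counted for more than 1 member.

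The inner summits lay within 423, 238.5, 343.5, 367.5 and 210 bp of the nearer annotated end in LHCB1.2, LHCB1.1, LHCB1.3, LHCB1.4 and LHCB1.5. In LHCB1.2, LHCB1.1 and LHCB1.5 that was the higher-coordinate end, and in LHCB1.3 and LHCB1.4 the lower. Strand was not used here, so these ends were not read as start or stop of the gene. The LHCB1 genes are close copies of each other, and the sources used here do not say how reads that match several copies were placed. The folds of single copies are therefore uncertain, as is whether each copy has a peak of its own. The local background at the inner summits was 1.11 to 1.67 times the genome level in replicate 1 and 1.13 to 1.57 times in replicate 2, and the part of shared reads in these values was not tested.

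**Figure D3:**
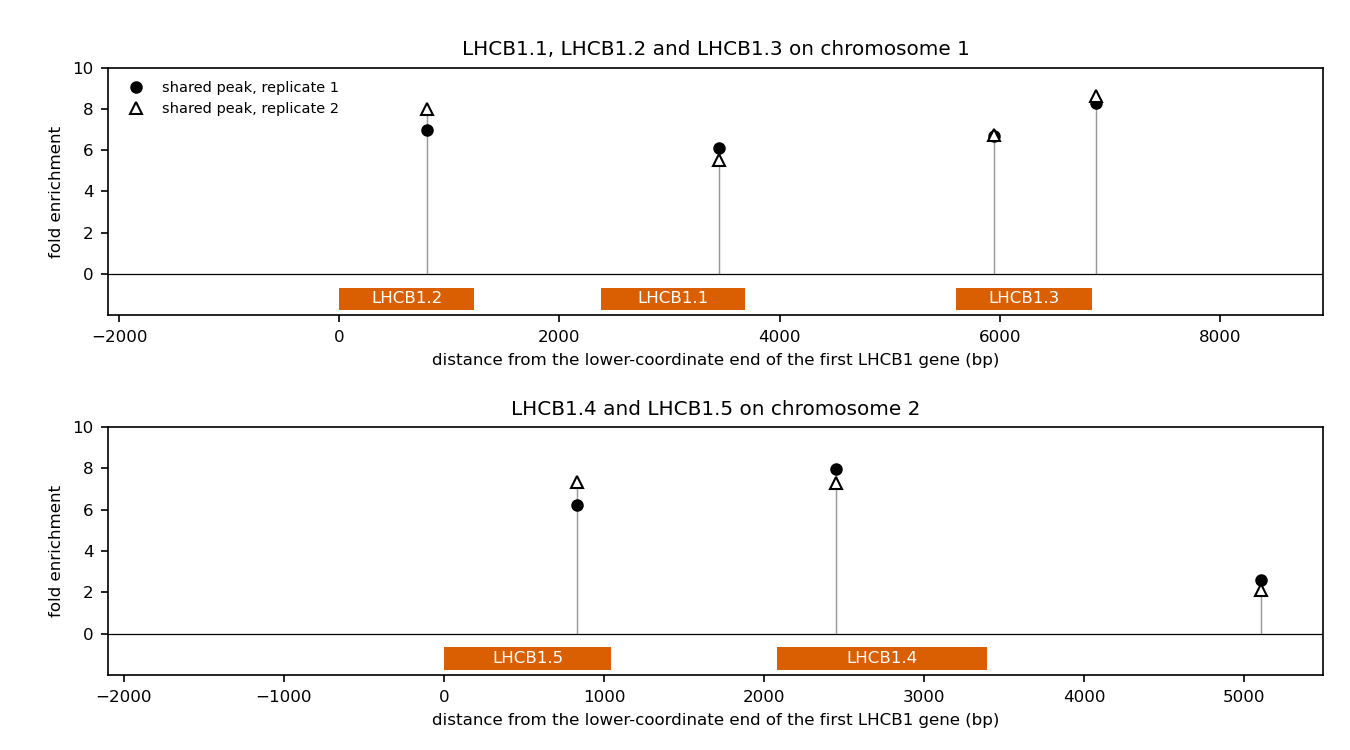
Shared SPL10 summits along the LHCB1 run on chromosome 1 (top) and the LHCB1 pair on chromosome 2 (bottom). The x axis gives the distance in bp from the lower-coordinate end of the first gene, bars are annotated genes, and points are fold enrichment in replicate 1 (circles) and replicate 2 (triangles). Every LHCB1 gene has a summit inside it, between 5.52-fold and 7.99-fold.

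Among the other major antenna genes, which encode partners of LHCB1 in the trimer, 3 of 4 were bound (coding genes 59.9%). LHCB2.1 (AT2G05100) had 2 inner peaks, the stronger at 5.82-fold and 5.53-fold and the weaker at 2.92-fold and 3.56-fold. LHCB2.3 (AT3G27690) had an inner peak of 4.08-fold and 4.71-fold and a second one 844 bp off its lower-coordinate end at 3.20-fold and 3.56-fold. LHCB2.2 (AT2G05070) had no shared peak in the window, although replicate 2 alone listed one at 2.65-fold. LHCB3 (AT5G54270) had the strongest peak assigned to any LHCB gene, at 22036145 to 22036508 on chromosome 5, with 9.22-fold in replicate 1 and 8.46-fold in replicate 2. That summit lay 1835 bp off and inside MRE11, a DNA repair gene, as did a weaker one of 2.71-fold and 2.73-fold at 387.5 bp.

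The minor antenna proteins link the trimers to the photosystem II core, and 3 of their 5 genes were bound (coding genes 59.9%). LHCB4.1 (AT5G01530) had 2 inner peaks, at 7.32-fold and 8.07-fold on chromosome 5 at 209269 to 209594, and at 4.40-fold and 6.23-fold. Its paralogue LHCB4.2 had 4.01-fold and 3.43-fold at 313 bp, inside the next gene, and LHCB4.3 had no peak in either replicate. LHCB5 had a weak peak of 1.81-fold and 2.06-fold, and LHCB6 had none. LHCB7, a rarely expressed relative, had no shared peak, but a strong one of 16.5-fold and 17.8-fold stood 2383 bp away, outside the window.

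The photosystem I antenna genes were bound in 3 of 6 cases (coding genes 59.9%). Beside LHCA3 (AT1G61520), a peak on chromosome 1 at 22699378 to 22699709 reached 7.45-fold (6.10 to 9.0) in replicate 1, with 7.25-fold (5.89 to 8.85) in the other replicate. Its summit lay outside genes, 176 bp off the lower-coordinate end, and LHCA3 was the nearest coding gene. LHCA5 (AT1G45474), which encodes a minor antenna protein that helps to dock the NDH complex, had an inner peak of 7.80-fold and 6.73-fold. LHCA2 had a weak inner peak of 2.92-fold and 3.26-fold. LHCA1 and LHCA4, whose proteins pair at photosystem I, had no peak in either replicate, and LHCA6 had one in replicate 1 alone, at 1.88-fold.

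Of the 13 genes for photosystem I subunits, 5 were bound (38.5%). The interval, 13.9% to 68.4%, contained the 59.9% of coding genes. Of the 5 bound genes, 4 were bound only weakly. PSAK (AT1G30380), whose product binds the antenna, was the exception. Its peak on chromosome 1 at 10720755 to 10721146 reached 10.2-fold (8.62 to 12.0) in replicate 1, with 10.8-fold (9.11 to 12.7) in the other replicate. The summit lay outside genes, 1221 bp off PSAK, and another gene, DLAH, was nearer. PSAD-2, for a ferredoxin-docking subunit, had an inner peak of 2.35-fold and 2.43-fold, while its paralogue PSAD-1 had no shared peak. For PSAO the folds were 2.74 and 3.02, for PSAF 2.42 and 2.43, and for PSAP (also CURT1B, which bends thylakoid membranes) 2.21 and 2.35, with each summit inside another coding gene. No shared peak was assigned to PSAE-1, PSAE-2, PSAG, PSAH-1, PSAH2, PSAL or PSAN. Both paralogues of PSAE and of PSAH were thus unbound, and PSAD differed between its copies.

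The oxygen-evolving complex stabilises the manganese cluster of photosystem II. Of its 6 genes 4 were bound (66.7%, against 59.9% of coding genes), none as strongly as 5-fold. PSBO2 (AT3G50820) had 2 inner peaks of 4.45-fold and 3.78-fold, and of 4.12-fold and 3.56-fold. PSBO1 (AT5G66570) had one of 3.63-fold and 3.41-fold outside genes, 863 bp past its higher-coordinate end, and an inner one of 2.92-fold and 2.96-fold. The weakest were PSBQ-2, at 2.14-fold and 2.13-fold, and PSBQA, at 2.13-fold and 1.76-fold. The PSBQ-2 summit lay outside genes, 1172 bp off and nearer to another coding gene. That of PSBQA lay 715 bp off, inside another coding gene, with −log10 q of 1.21 in replicate 2. PSBP-1 and PSBP-2 had no shared peak, although replicate 1 alone listed one for PSBP-2 at 1.97-fold. The paralogues of each subunit were thus called alike, but for PSBQ only through weak peaks outside the genes.

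PSBTN (AT3G21055), for a small nuclear-encoded photosystem II subunit, had the strongest peak of all members. It lay between genes at 7374452 to 7374951 on chromosome 3, with its summit 1673 bp off the lower-coordinate end and PSBTN the nearest coding gene. Its fold was 16.6 (238 tags) in replicate 1 and 19.2 (259 tags) in replicate 2, at percentile 98.6 of all shared peaks. A weaker peak of 3.43-fold and 2.93-fold stood 910.5 bp off, inside a noncoding gene. PSBW had 3 peaks within 2000 bp, all inside neighbouring coding genes, the strongest at 4.44-fold and 4.39-fold. PSBS (NPQ4), which triggers the dissipation of excess light energy as heat, had an inner peak of 2.71-fold and 3.18-fold. PSBX had a weak peak of 1.86-fold and 2.05-fold, 1769.5 bp off and inside RPA1A, with −log10 q of 0.998 in replicate 1. PSBR and PSBY each had a peak in 1 replicate only.

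Genes for assembly and maintenance were bound in 4 of 6 cases (66.7%, against 59.9% of coding genes), none with a summit inside the gene. PSA2 (EDA3, AT2G34860), needed to accumulate photosystem I, led them through a peak on chromosome 2 at 14707329 to 14707698. It reached 9.64-fold (8.10 to 11.4) in replicate 1, with 9.22-fold (7.66 to 11.0) in the other replicate, with a summit between genes, 727 bp from PSA2 and nearer to MEE25. PSB33 (AT1G71500) had 4.33-fold and 4.84-fold, PSB29 (THF1) 4.05-fold and 4.09-fold, and LPA19 (Psb27-H1) 3.70-fold and 3.03-fold. PSB27 and PSB28 had no peak in either replicate.

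The PsbP- and PsbQ-like proteins of the thylakoid lumen resemble subunits of the oxygen-evolving complex. This set leaves out the NDH subunits, which the PSB prefix also took in and which were counted apart. In it 4 of 5 genes were bound (80%, interval 28.4% to 99.5%, against 59.9% of coding genes). They were led by PPD1 (AT4G15510), needed for photosystem I assembly, with an inner peak of 8.23-fold and 8.46-fold. PQL3 had 5.89-fold and 4.98-fold at 1810 bp, inside BPC1. PPL1 had 2.87-fold and 2.58-fold, PPD6 had 2.49-fold and 2.96-fold, and PPD5 had no peak. Of the NDH subunits, PnsL2 (AT1G14150) held an inner peak at 4840373 to 4840758 on chromosome 1, with 10.7-fold (9.07 to 12.5) in replicate 1, with 11.5-fold (9.73 to 13.4) in the other replicate, whereas PnsL1 and PnsL3 had no shared peak. PnsL2 was the strongest inner peak of all members. Of the NDH genes 1 of 3 was thus bound (33.3%, against 59.9% of coding genes).

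The 3 genes matched by name alone were all bound (interval 29.2% to 100%, which contained the 59.9% of coding genes). Their folds were 2.92 and 2.65 (PSAT1), 3.20 and 2.50 (PSAT) and 4.33 and 3.63 (PSAT2). The strongest summit of PSAT lay inside CYCB2;2 and that of PSAT2 inside CYCB2;1, so the strongest peak of each aminotransferase gene stood in a B-type cyclin gene beside it. PSAT2 also had an inner peak of 2.21-fold and 1.97-fold.

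Assignment within 2000 bp did not tie most peaks to the member. The strongest summit lay inside the member for 14 of 39 bound genes (35.9%, against 33.6% of bound coding genes), inside another coding gene for 18 and outside genes for 7. The member was the nearest coding gene for 17 of the 39. Of these counts, only that inside the gene was also computed over bound coding genes, where the share was similar. The others cannot be read as particular to the members. One shared peak was assigned to 25 members, 2 peaks to 12 and 3 peaks to 2. Near the limit of the window, LHCB3 at 1835 bp and PQL3 at 1810 bp stood just inside. LHCB2.2, with a shared summit at 2142.5 bp (3.20-fold and 4.01-fold), and PSAD-1, with one at 2201 bp (9.78-fold and 8.69-fold), stood just outside.

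**Figure D4:**
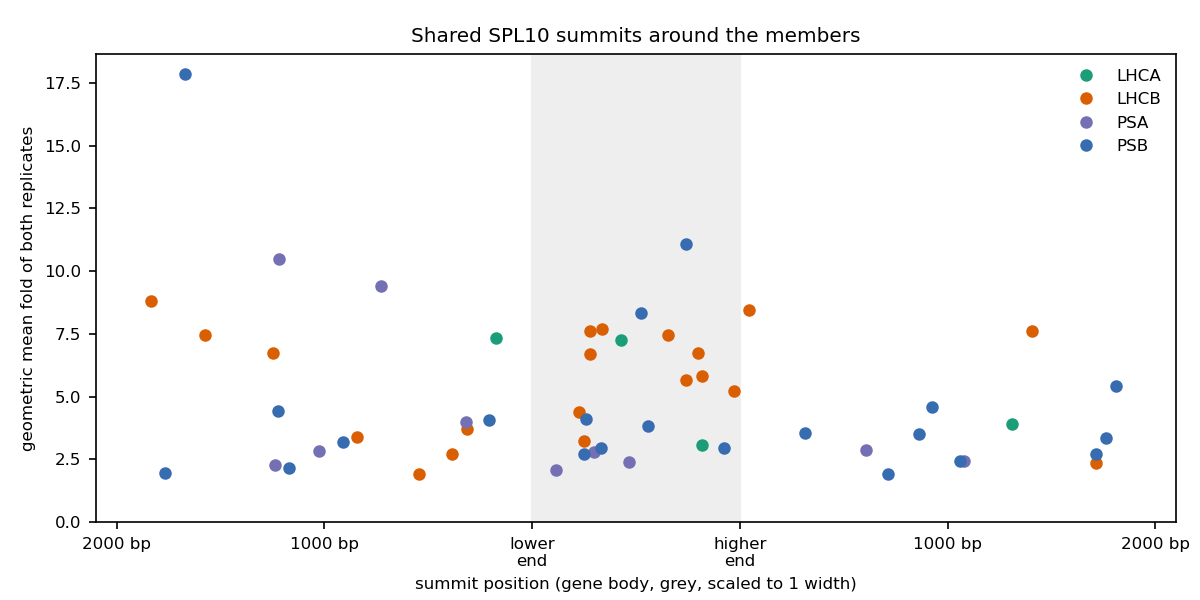
Position and strength of every shared summit assigned to a member, with the gene body (grey) scaled to 1 width and the flanks in bp from the lower- and higher-coordinate ends. Each point is 1 summit at the geometric mean fold of both replicates, coloured by prefix. Most LHCB summits inside the member stand above 5-fold, and these include summits of all 5 LHCB1 copies. All PSA summits inside the member stand under 3-fold. They are those of PSAD-2, PSAT1 and PSAT2, and PSAT1 and PSAT2 are not photosystem genes.

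The replicates gave similar values at these genes. Summits of the 52 distinct peaks lay a median of 11.5 bp apart, at most 85 bp, and the larger fold was at most 1.42 times the smaller. The counting intervals of the replicates overlapped at all 51 peaks for which they were computed. The peaks were chosen for overlapping in both lists, which favours close summits and folds. Their tag split also varied 0.518 times as much as binomial sampling gives, so the overlap of intervals is no separate measure of agreement. Of the 24 unbound members, 11 had a peak in 1 replicate and 13 had none in either. The highest of these single-replicate folds was 2.65, at LHCB2.2.

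Other genes of photosynthesis were looked up from 5 lists, for which 49 of 51 symbols were found. Of the genes for chlorophyll synthesis, 12 of 16 were bound (75%, against 59.9% of coding genes). CHLM, a methyltransferase of the pathway, had 15.7-fold and 14.8-fold, but its summit lay 1125.5 bp off and inside another coding gene. CH1 (CAO), the oxygenase that makes chlorophyll b for the antenna, had an inner peak of 14.5-fold and 14.3-fold, and HEMA2 had 9.22-fold and 8.46-fold at 1010.5 bp, inside another coding gene. All 6 regulators were bound, with GLK2 at 11.1-fold and 10.6-fold 382.5 bp off, CGA1 (GNL) at 8.93-fold and 9.67-fold inside the gene, and GPRI1 (GLK1) at 4.48-fold and 5.67-fold 1453.5 bp off.

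Electron transport and ATP synthase genes were bound in 6 of 13 cases (46.2%), with FNR2, a ferredoxin reductase, at 9.0-fold and 7.33-fold inside the gene and FNR1 at 6.48-fold and 6.17-fold, 1587 bp off and inside another coding gene. Carbon fixation genes were bound in 2 of 7 cases (28.6%): RCA, the activator of Rubisco, at 3.41-fold and 4.54-fold inside the gene, and RBCS1A at 3.77-fold and 3.36-fold, 1951 bp off and inside another coding gene. Genes of light-harvesting-like proteins were bound in 4 of 7 cases, with OHP2 at 5.82-fold and 5.37-fold, 1779.5 bp off and again inside another coding gene. Each list is small, and none of these shares was tested against the background. The exact binomial interval of each list contained the 59.9% of coding genes.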

How the data were processed

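The members and gene lists were chosen with earlier results of these data known. Peaks were called with MACS for each replicate, per the peak names in the deposited lists; cutadapt and the TAIR10 build are named in the submitters' processing notes. The sources used here give neither the caller's version nor its threshold and control. Fold is the deposited ratio of summit signal to local background. The lists also give −log10 p-values and q-values and a score as deposited by the authors; the score was not analysed.

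Genes were named from RefSeq (TAIR10.1), in a table without strand; its coordinates were used for distances and are not printed. Promoter sequences were not used here, so the planned search for GTAC was not run. Shared peaks were paired 1 to 1 by reciprocal overlap of at least 50%. Whole tags at each summit were recovered from fold and −log10 p, as the whole number whose p-value came nearest (100% of peaks within 1% in both lists). That choice itself favours a close match, and the recovery was tested only on lists simulated with the same formula. The recovered tags gave exact 95% Poisson intervals. These cover counting error only and were left out above 198 tags, since no summit exceeded 396. Every member is named, with folds for bound ones, and of each other list at most the 3 strongest. In those lists 3 genes that share a symbol with another were left out. No significance test was run. Analyses used Python 3.11.15, pandas 2.3.3 and scipy 1.17.1.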

Additional observations from a re-analysis of the deposited data

How the results depend on the processing

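No paired analysis was possible because the only group with peaks has no partner group. With both summits required in the window, or any overlap of at least 1 bp, the members' shares and medians stayed as reported, while the share of coding genes bound was 59.7% and 61.7%. The share of members bound was 47.6% with 80% reciprocal overlap (coding genes 49.6%), 36.5% at −log10 q of 10 or more (coding genes 36.0%), 23.8% among the 5000 strongest peaks (22.6%), 47.6% within 1000 bp (45.9%), 38.1% within 500 bp (37.2%) and 42.9% without gene bodies (45.3%), so it stayed near the background. Among PSA and PSB genes it was 17.6% and 32% at −log10 q of 10 or more, 11.8% and 12% among the 5000 strongest peaks, and 17.6% and 32% within 500 bp. LHCB stood at 66.7%, 53.3% and 66.7% in these 3 settings, above coding genes in each. All 5 LHCB1 genes, which are close copies of each other, were among the LHCB genes bound in each setting. The LHCB values without these copies were not computed for these settings. With single replicates, the share was 68.3% without replicate 1 (coding genes 69.4%) and 73.0% without replicate 2 (coding genes 69.8%), with 50% to 66.7% in LHCA, 80% in LHCB, 64.7% in PSA and 68% to 76% in PSB.

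The median fold of bound members was 7.47 at −log10 q of 10 or more (coding genes 6.51), 7.69 among the 5000 strongest peaks (8.41), 3.71 with first symbols only and 4.38 over photosystem products only. For PSA it was 9.43 and 9.96, and for PSB 5.0 and 11.1, under the first 2 of these. Those 2 settings keep strong peaks only, so their medians rise by construction. Members stood under coding genes in the main setting, but above them at −log10 q of 10 or more and within 500 bp (4.24 against 3.98). LHCA fell to 5.22 with 80% overlap. LHCB was 5.80 within 1000 bp, 6.28 within 500 bp, 7.11 without gene bodies and 5.03 with first symbols only, a setting that leaves out the LHCB1 genes. PSB was 3.54 within 1000 bp and 3.52 both without gene bodies and over photosystem products. PSA was 2.65 over photosystem products. With single replicates the medians ran from 3.63 to 3.86 over all members, 5.18 to 6.73 in LHCA, 6.98 to 7.33 in LHCB, 2.50 to 2.92 in PSA and 3.41 to 3.63 in PSB. Tags at the summit, a median of 47 and 45, limit single folds, and 2 lists of 1 kind allow no test between groups of genes.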
